A study of Canis lupus familiaris with 3 samples.

Results

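Genes of antigen presentation and of the interferon response were followed in MDCK, a line of epithelial cells that came from the kidney of a dog. MDCK-E47 transfectants were compared with MDCK-CMV cells, which the labels give as control. E47 is a product of the gene TCF3, a transcription factor of the helix-loop-helix class, and the series title calls it a repressor in the setting of E-cadherin. Members were the genes whose annotated symbol begins with one of a fixed set of stems, among them HLA-, TAP, IFI, IFIT, IFNAR, IFNGR, ISG, IRF, STAT, JAK, OAS and GBP, and single genes such as B2M, CD74 and CIITA. Of 62 genes found in this way, 61 had a value on all 3 arrays, out of 5508 named genes. IRF1 was left out, because its 2 spots gave a single value, 0.08 on 1 array.

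Each array held human cDNA clones and was hybridised with amplified RNA of both kinds of cell, in different dyes. Extraction 1 of the E47 cells was hybridised once, with E47 in Cy5. RNA of extraction 2 went onto 2 arrays with exchanged dyes, E47 being Cy3 on the one and Cy5 on the other. This dye swap was averaged, so that n = 2 extractions. Both kinds of cell were grown in the same medium, and the labels give neither a clone nor a passage for either. They do not say either whether the extractions came from separate cultures, so the spread between them may be technical.

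The values are log ratios, read here as log2 and with E47 as the numerator. That reading is likely and no source states it: each sample lists the E47 cells as its first channel, and CDH1, the gene of E-cadherin, was at −3.52, −3.83 and −3.47. With the opposite direction, all signs given here would turn. Were the base natural, the folds would be larger, for HLA-B 3.52-fold in place of 2.39-fold. TCF3 was at −0.27, −0.28 and −0.35, with a mean of −0.29 ± 0.08 (SE from limma, n = 2) and an adjusted p of 0.118. This checks nothing if its clones lie outside the introduced cDNA. If they lie within it, values below 0 would go against E47 as the numerator. Which of these holds is not known. The ratios hold no level, so no marker of a cell type could be called present or absent. Between 24771 and 25537 of 27648 spots had a value on each array, and signal over background is unknown. In cultures measured in bulk, fewer cells of a kind and less RNA per cell cannot be told apart.

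Class I molecules are made of a heavy chain and beta-2-microglobulin, and carry peptides of the cytosol that the TAP transporter brings into the endoplasmic reticulum. Class II molecules present peptides from endosomes, with the invariant chain CD74 as their chaperone and CIITA as the coactivator of their genes. Interferons bind receptors coupled to JAK kinases, which phosphorylate STAT factors. These, together with factors of the IRF family, switch on antiviral genes and also raise class I genes in many cell types, epithelia included.

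The genes of this set that passed the test all belonged to antigen presentation. Of 61 members, 5 were lower in E47 cells, none was higher and 56 did not pass. The test was that of limma over all features, with a threshold of 0.05 on the adjusted p. The 5 were HLA-G, HLA-B, HLA-E, CD74 and HLA-DOA, with mean log2 ratios from −1.39 to −0.60. Taken without adjustment, p was under 0.05 for 16 lower and 3 higher members. Of all named genes, 18.2% were lower and 17.4% higher by that rule, 35.6% in all, and the unadjusted counts given below for smaller groups are read against these shares. Over all 5508 named genes 3.85% were called lower, 5.34% higher and 9.19% in either direction. The members' share called, 8.20%, was therefore near the background in total. In the lower direction the same 8.20% stood against 3.85%. It turned on HLA-B, HLA-E and HLA-G, whose clones may have measured the same dog transcripts. Without them it was 2 of 58, or 3.45%, but leaving out called members lowers the share in any case. Counted as 1 gene, they would give a share between 3.45% and 8.20%. The median log2 ratio of the members was −0.09 against −0.02 for all named genes. On the arrays it was −0.16 for extraction 1, −0.03 for extraction 2 in Cy3 and −0.16 for extraction 2 in Cy5. Of the members, 42 had a mean within 0.25 of 0, and the mean reached 2-fold in 3. On all 3 arrays 23 members were below 0 and 10 above, where 32.8% and 30.6% of all named genes were so. Under other settings the members' share called, in either direction, was mostly below that of all named genes. It was 10 of 61 with the 3 arrays as separate values, where 18.3% of named genes were called. With dye as a covariate, also over the 3 arrays as separate values, 6 members were called against 13.5%. From the Cy5 arrays alone it was 6 against 16.7%. With named genes as the only features 9 were called against 21.3%, and at an adjusted p under 0.10 the count was 9 against 22.6%. It was 1 of 61, against 1.98%, when the Cy5 array of extraction 2 was left out. With scaled arrays the share was above the background, at 6 of 61 against 7.93%. It was 5 of 61 with centred arrays against 8.73%, with the median over spots against 9.08% and with clones weighted equally against 9.22%. It was also 5 with incomplete spots kept, against 8.55%, and with robust eBayes, against 9.35%.

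**Figure D1:**
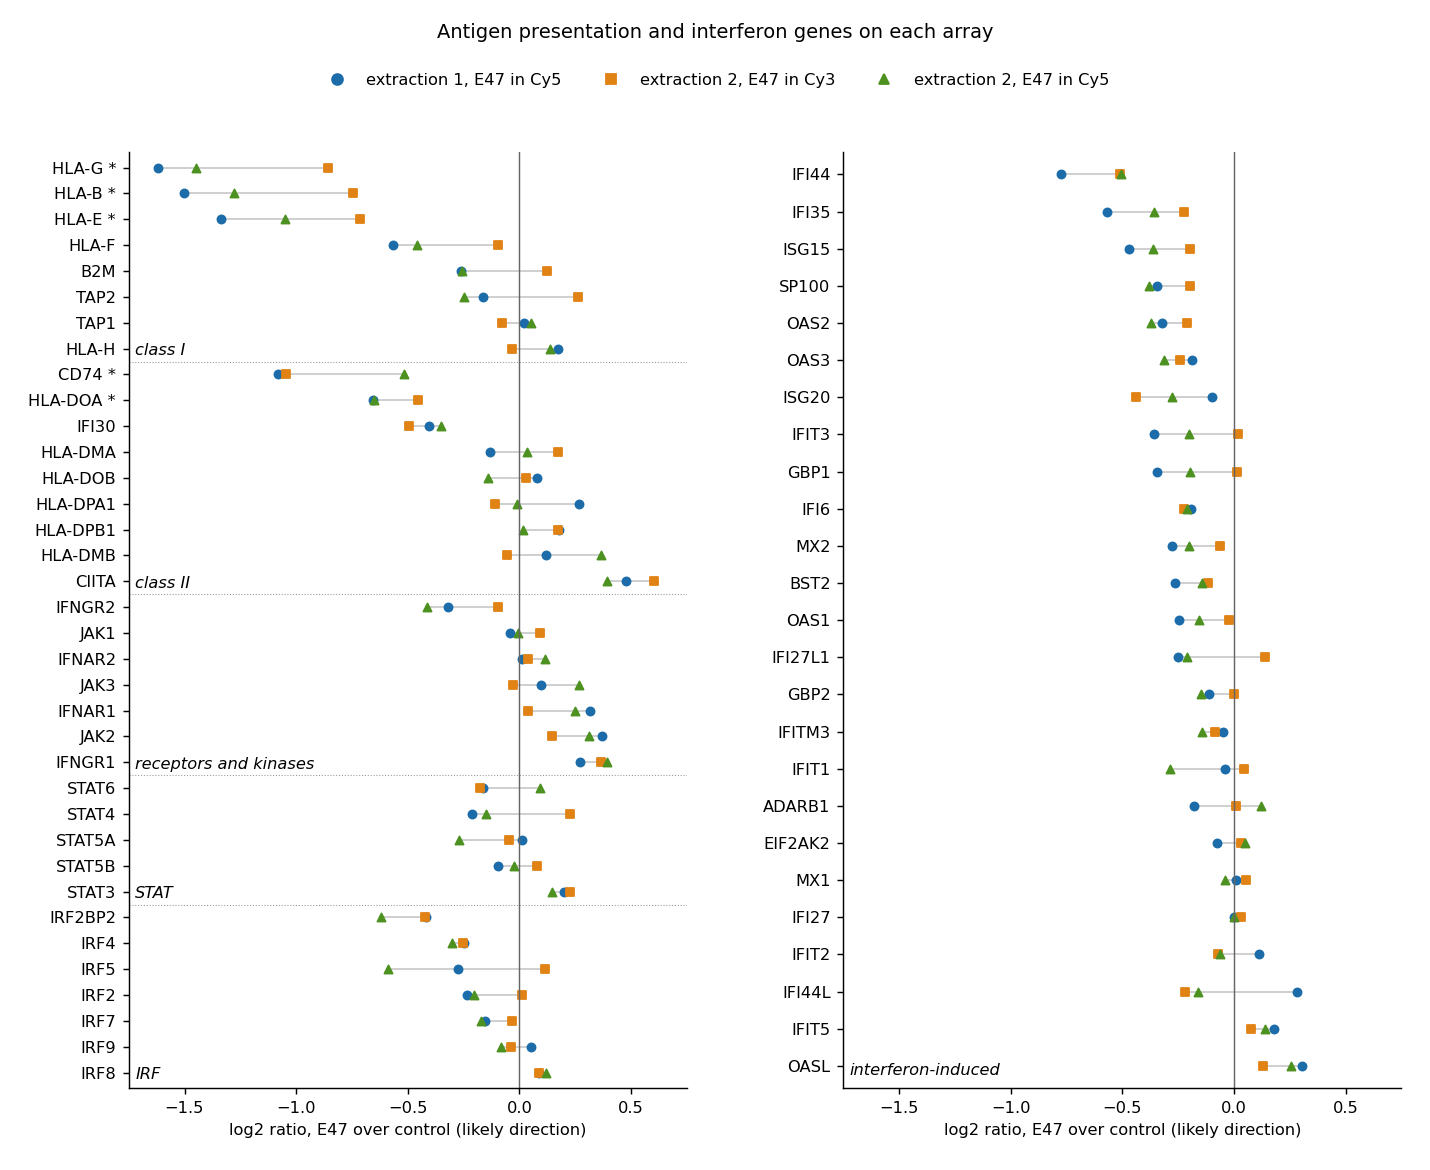
Log2 ratio of E47 over control (x axis, likely direction) of each of the 61 genes on each of the 3 arrays, grouped by role and ordered by mean, with a line from the lowest to the highest array and an asterisk at the 5 genes with an adjusted p under 0.05. HLA-G, HLA-B, HLA-E, CD74 and HLA-DOA lie left of 0 on all arrays, while 42 of the 61 genes have a mean within 0.25 of 0.

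Class I heavy chain genes gave the lowest ratios. HLA-G had a log2 ratio of −1.62 on the array of extraction 1, −0.86 on the Cy3 array of extraction 2 and −1.45 on its Cy5 array. All 3 values lay well below 0, and the dye swap differed by 0.59 between its arrays. The mean was −1.39 ± 0.15 (moderated SE, n = 2 extractions, as for the values that follow), or 2.61-fold lower, and the adjusted p was 0.0283. The SD between the extractions was 0.33. The SE is that of the mean of 2 extractions, and it is also drawn towards the spread of all features. Among the 5508 named genes its mean ranked 47 from the lowest.

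HLA-B had values of −1.50, −0.75 and −1.28 in the same order of arrays. Again the Cy3 array lay closest to 0. Its mean was −1.26 ± 0.15, or 2.39-fold lower, with an adjusted p of 0.0341. HLA-E, which in human cells presents leader peptides of other class I chains to natural killer cells, gave −1.34, −0.71 and −1.05. Its mean was −1.11 ± 0.14, or 2.16-fold lower, with an adjusted p of 0.0381. None of the 3 genes was 2-fold lower on every array. Without the Cy5 array of extraction 2 all 3 lost their call, at adjusted p-values of 0.0963 for HLA-G, 0.112 for HLA-B and 0.104 for HLA-E. Their means were then −1.24, −1.13 and −1.02. Over the reported test and all tested alternatives, adjusted p-values ran from 0.0133 to 0.0963 for HLA-G, from 0.0165 to 0.112 for HLA-B and from 0.0148 to 0.104 for HLA-E.

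The clones of class I genes fell into separate ranges. Of 7 clones annotated to HLA-B, HLA-E, HLA-F, HLA-G or HLA-H, 5 had means between −1.39 and −1.02. Their 15 array values ran from −1.62 to −0.32, and in each of the 5 the Cy3 array of extraction 2 was nearer to 0 than its Cy5 array. The 2 clones of HLA-E had means of −1.13 and −1.09, and both passed when clones were tested separately, at adjusted p-values of 0.0322 and 0.0399.

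The HLA-F clones were opposite to each other. One gave −1.30, −0.32 and −1.17, with a mean of −1.02 ± 0.17 and an adjusted p of 0.0507 when clones were tested separately. The other gave 0.16, 0.13 and 0.25, with a mean of 0.18. The gene average of −0.42 ± 0.11, with an adjusted p of 0.107, therefore describes neither clone. From the Cy5 arrays alone that average was −0.51 and passed, at 0.0463. The single clone of HLA-H, annotated to a class I pseudogene in human, was at 0.17, −0.03 and 0.14.

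Class I coding sequences are closely related, so that a human clone may hybridise with the transcripts of more than 1 dog class I gene. RefSeq genes of the dog assembly UU_Cfam_GSD_1.0 include the class I genes DLA88, DLA-64, DLA-12a and DLA-79 and none of the 11 HLA symbols of the members. The HLA-B, HLA-E and HLA-G clones and the low HLA-F clone may thus have measured the same dog transcripts. They cannot be counted as 4 separate genes of the dog.

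The other class I members did not pass. B2M, the light chain shared by all class I molecules, was at −0.26, 0.12 and −0.26, with a mean of −0.16 ± 0.10 and an adjusted p of 0.305. Its arrays of the dye swap lay on opposite sides of 0. TAP1 and TAP2, the subunits of the peptide transporter, had means of 0.0047 and −0.08. TAP2 was at −0.16, 0.26 and −0.25, so here too the arrays of the dye swap differed in sign. Of the 8 class I members, 3 were lower, 5 did not pass and 4 were below 0 on all 3 arrays. Of all named genes, 3.85% were called lower and 32.8% were below 0 on all arrays. The 3 were HLA-B, HLA-E and HLA-G, whose clones may have measured the same dog transcripts.

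**Figure D2:**
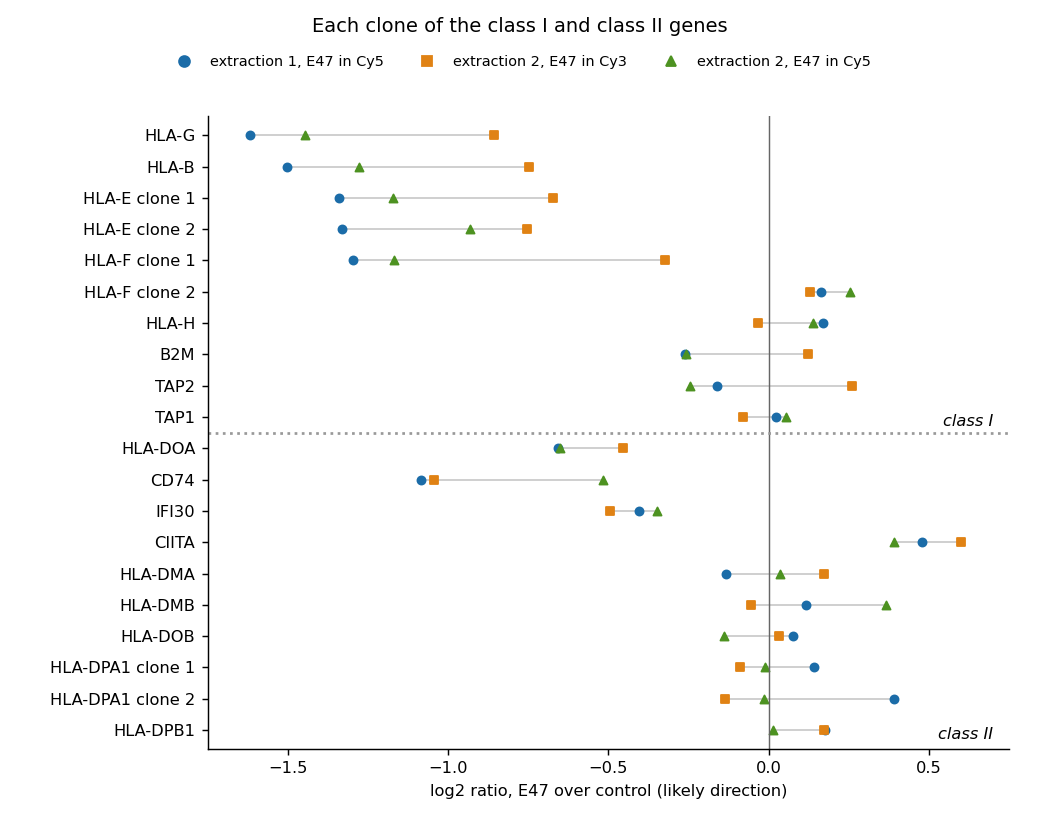
Log2 ratio of E47 over control (x axis, likely direction) of each clone annotated to a class I (above the dotted line) or class II gene (below it), on each array, with clones of a gene numbered from the lowest mean and a line from the lowest to the highest array. The HLA-G, HLA-B and both HLA-E clones and clone 1 of HLA-F lie below −0.3 on every array, and clone 2 of HLA-F lies above 0 on every array.

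Outside the members, 7 measured genes act in the class I pathway, as chaperones, peptide-trimming enzymes or parts of the immunoproteasome. Of these, 2 were lower, where 3.85% of all named genes were, and none was higher. The median was −0.11, and 3 were lower and 1 higher at an unadjusted p under 0.05. CALR, calreticulin, a chaperone of the peptide-loading complex that also folds many other glycoproteins, was at −1.02 ± 0.11 with an adjusted p of 0.0292. PSME1, a subunit of the interferon-inducible proteasome activator, was at −0.91 ± 0.11 with an adjusted p of 0.0351. Its array values of −1.06, −0.70 and −0.82 were all below 0. Both calls were lost without the Cy5 array of extraction 2. PSMB8, an inducible proteasome subunit, was at 0.16 and PSMB10, another, at −0.37, and neither passed.

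Among 9 class II members, 2 were lower, where 3.85% of all named genes were, none was higher and 7 did not pass. The invariant chain gene CD74 was at −1.08 for extraction 1 and −1.04 and −0.52 for the Cy3 and Cy5 arrays of extraction 2. In contrast to the class I clones, the Cy5 array of the swap was the one closer to 0. The mean was −0.93 ± 0.11, or 1.91-fold lower, with an adjusted p of 0.0348, and it rested on 1 spot. The call was lost from the Cy5 arrays alone, at an adjusted p of 0.0658, and with dye as a covariate, at 0.0555. It was the one member call left without the Cy5 array of extraction 2, at an adjusted p of 0.0498. Over the alternatives it ran from 0.0162 to 0.0658.

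HLA-DOA encodes a chain of the HLA-DO molecule, which holds back the peptide exchange factor HLA-DM. It was at −0.66, −0.46 and −0.65, with a mean of −0.60 ± 0.09 and an adjusted p of 0.0444. The SD between the extractions, with the dye swap averaged, was 0.07, and the arrays of the swap differed by −0.20, Cy5 minus Cy3. The adjusted p was 0.141 when the Cy5 array of extraction 2 was left out, and as low as 0.0164 under another alternative. Its partner chain HLA-DOB was at 0.08, 0.03 and −0.14, and had a mean of 0.01.

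CIITA, the coactivator of class II genes, had the highest mean of the 61 members and was opposite to CD74. Its values were 0.48, 0.60 and 0.39, with a mean of 0.49 ± 0.08 and an adjusted p of 0.0580, so it did not pass. It was above 0 on each array. The SD between the extractions, with the dye swap averaged, was 0.01, but the arrays of the swap differed by −0.21, Cy5 minus Cy3. With dye as a covariate the adjusted p of CIITA was 0.0391, and over the alternatives it ran from 0.0246 to 0.134. IFI30, a lysosomal thiol reductase that prepares antigens for class II, gave −0.41, −0.49 and −0.35, with a mean of −0.41 ± 0.08 and an adjusted p of 0.0729. The remaining class II genes HLA-DMA, HLA-DMB, HLA-DPA1 and HLA-DPB1 had means between −0.02 and 0.14. HLA-DPB1 was above 0 on every array, while the other 3 changed sign between arrays. The RefSeq genes of the dog include no DP gene by symbol, so what the HLA-DPA1 and HLA-DPB1 clones measured is not known.

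None of 8 class II pathway genes outside the members passed, with a median of −0.07, and 1 was higher at an unadjusted p under 0.05. The largest ratio was that of CTSS, an endosomal protease that trims the invariant chain, at 0.29 with an adjusted p of 0.126. RFX5, a DNA-binding factor that recruits CIITA to class II promoters, was at −0.21 with an adjusted p of 0.193.

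Receptors and kinases had a median of 0.11, and none of 7 passed. Before adjustment 2 higher and 1 lower had a p under 0.05, a share near the background of 35.6%. The chains of the interferon gamma receptor were opposite to each other. IFNGR1, the ligand-binding chain, was at 0.27, 0.37 and 0.39, with a mean of 0.33 ± 0.09 and an adjusted p of 0.109. IFNGR2, the signalling chain, was at −0.32, −0.10 and −0.41, with a mean of −0.29 ± 0.08 and an adjusted p of 0.122. The arrays of the pair did not overlap, and the difference between them was not tested.

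The chains of the type I interferon receptor, IFNAR1 and IFNAR2, had means of 0.23 and 0.04 and were above 0 on all arrays. JAK2, the kinase bound to IFNGR2, was at 0.37, 0.15 and 0.31, with a mean of 0.30 ± 0.09 and an adjusted p of 0.127. JAK3, the kinase of receptors with the common gamma chain, had a mean of 0.11. JAK1, which serves both interferon receptors, had a mean near 0 that hid 3 clones at −0.28, −0.10 and 0.38. The highest of them lay above 0 on all arrays and the lowest below 0 on all arrays.

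Of 5 STAT factors none passed, also at an unadjusted p under 0.05. STAT3, which acts mainly behind receptors of the interleukin-6 family, was the one above 0 on all arrays, at 0.20, 0.22 and 0.15, with a mean of 0.19 ± 0.08 and an adjusted p of 0.203. STAT6, the factor of interleukin-4 signalling, was at −0.16, −0.18 and 0.09, with a mean of −0.10. STAT4, STAT5A and STAT5B had means between −0.09 and −0.03, and each had arrays on both sides of 0. The STAT5B clones were at −0.20, −0.01 and 0.17.

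Among 17 other regulators and cytokine receptors of JAK-STAT signalling none passed, with a median of 0.01, and 4 higher and 1 lower at an unadjusted p under 0.05, a share below the background. IL4R, a chain of the interleukin-4 receptor, had the largest ratio in size, at 0.57 with an adjusted p of 0.0606. SOCS1, a feedback inhibitor of interferon signalling, was at −0.40, −0.46 and −0.66, with a mean of −0.48 and an adjusted p of 0.0693. Neither was a call. From the Cy5 arrays alone 1 gene of this list passed, where 16.7% of all named genes did.

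The 7 members of the IRF group also held no call, and 3 were lower at an unadjusted p under 0.05. IRF2BP2, which binds IRF2 as a corepressor and is no IRF factor itself, was at −0.42, −0.42 and −0.62, with a mean of −0.47 ± 0.09 and an adjusted p of 0.0657. IRF4, a lymphoid factor, was at −0.25, −0.25 and −0.30, with a mean of −0.26 ± 0.08 and an adjusted p of 0.136. Both were below 0 on every array. IRF5, a mediator of signals from Toll-like receptors, was measured by 1 spot. It was at −0.27 for extraction 1, and at 0.12 and −0.59 on the Cy3 and Cy5 arrays of extraction 2, so the dye swap differed in sign. IRF7, the amplifier of type I interferon, was at −0.13 and IRF9, a DNA-binding factor of the type I interferon response, at −0.0047. IRF2 and IRF8 were at −0.17 and 0.10.

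Interferon-induced genes were mostly slightly below 0 and none of 25 passed. Before adjustment 5 lower genes, a share near the background of 18.2%, and no higher gene had a p under 0.05. Their median was −0.17, with −0.19 for extraction 1, −0.06 on the Cy3 array of extraction 2 and −0.20 on its Cy5 array. Of the 25, 12 were below 0 on all 3 arrays and 2 were above, where 32.8% and 30.6% of all named genes were so. The lowest was IFI44, a cytoplasmic protein induced by type I interferon, at −0.77, −0.51 and −0.50. Its mean was −0.64 ± 0.11, with an adjusted p of 0.0576. On the Cy5 arrays alone it passed, at an adjusted p of 0.0487, and over the alternatives this ran from 0.0210 to 0.120. Its neighbour in name IFI44L was at 0.28, −0.22 and −0.16, and had a mean of 0.05.

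IFI35 was at −0.57, −0.22 and −0.36, with a mean of −0.43 ± 0.11 and an adjusted p of 0.103. Its clones were at −0.55 and −0.32. ISG15, the ubiquitin-like modifier that is joined to proteins after interferon, was at −0.47, −0.19 and −0.36, with a mean of −0.37. The nuclear body protein SP100 had a mean of −0.32, with 2 clones at −0.47 and −0.42 and another at −0.05. All 3 genes were below 0 on every array, and in each the Cy3 array of the swap lay nearest to 0.

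The oligoadenylate synthetases, which detect double-stranded RNA and activate RNase L, differed in sign. OAS2, OAS3 and OAS1 had means of −0.31, −0.23 and −0.17 and were below 0 on all arrays, with adjusted p-values of 0.111, 0.167 and 0.278. OASL, the family member without this enzymatic activity, was above 0 on all arrays, with a mean of 0.25 and an adjusted p of 0.157. That rests on 1 clone. Another OASL clone, without values on the Cy3 array, was at −0.27 for extraction 1 and −0.02 on the Cy5 array. The OAS2 clones differed, at −0.47 and −0.14.

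Several other antiviral effectors had means near 0. MX1, a dynamin-like GTPase with a strong interferon response in many cells, was at 0.0092, 0.05 and −0.04. MX2 was at −0.21, with clones at −0.30 and −0.11. IFIT1, IFIT2 and IFIT3, which bind foreign RNA or help to do so, had means of −0.08, 0.02 and −0.22, and IFIT5 was at 0.14. None of these passed. EIF2AK2, the kinase that halts translation on double-stranded RNA, had a mean of −0.02, with its clones at −0.14 and 0.10. IFI27 had a mean of 0.0083, with clones at −0.16 and 0.17.

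The guanylate-binding proteins GBP1 and GBP2 had means of −0.22 and −0.09. ISG20, an exonuclease, was at −0.10, −0.44 and −0.28, with a mean of −0.23. IFI6, BST2 and IFITM3, which code for small membrane proteins, were at −0.21, −0.20 and −0.08 and below 0 on every array. IFI27L1, named for its likeness to IFI27, was at −0.14. ADARB1, an adenosine deaminase of RNA that matched by its symbol, was at −0.06.

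**Figure D3:**
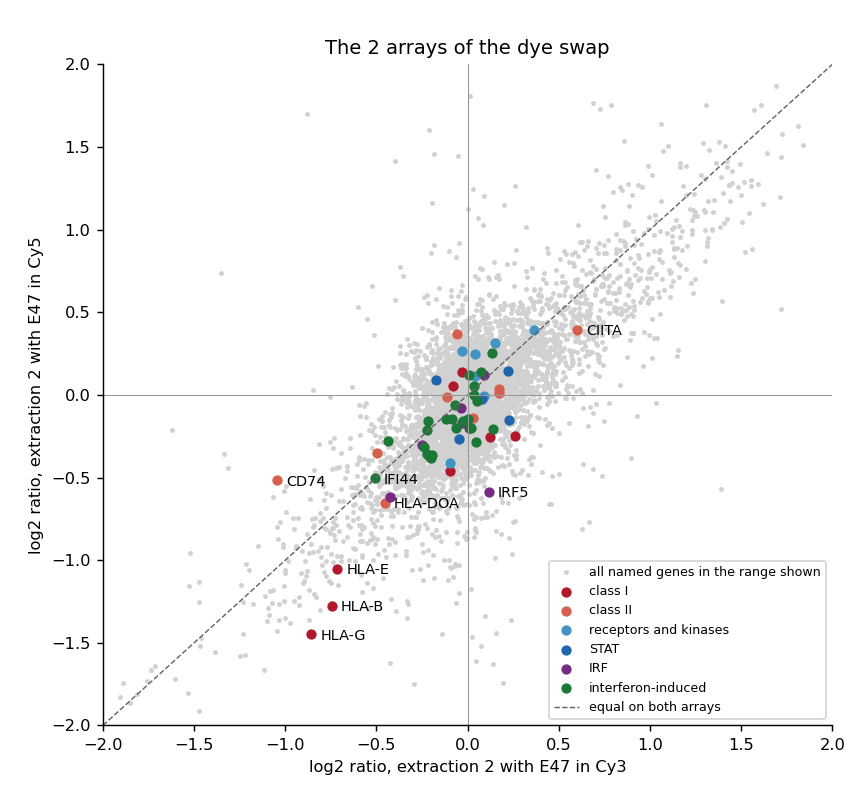
Log2 ratios of extraction 2 with E47 in Cy3 (x axis) and in Cy5 (y axis) for the 61 genes, coloured by role, and for all named genes between −2 and 2 in grey, with a dashed line where both arrays are equal. HLA-G, HLA-B and HLA-E lie below the line, CD74 lies above it, and IRF5 is above 0 in Cy3 and below 0 in Cy5.

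The arrays of the dye swap differed, and as each dye was on 1 array, dye and array cannot be told apart there. In extraction 2, the Cy3 value was higher than the Cy5 value in 39 of the 61 members and in 60.3% of all named genes. The median difference, Cy5 minus Cy3, was −0.10 for the members and −0.06 for all named genes. The Cy3 array also had the smallest spread over all spots, with an SD of 0.43 against 0.62 for extraction 1 and 0.54 for extraction 2 in Cy5. Extraction 1 has no dye swap, so its dye and its RNA cannot be told apart. With dye as a covariate HLA-G, HLA-B, HLA-E and HLA-DOA were still called, at means of −1.20, −1.07, −0.95 and −0.55.

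Of 16 interferon-induced genes outside the members, 3 (18.8%) were lower and none was higher. Of all named genes, 3.85% were lower and 5.34% higher. At an unadjusted p under 0.05, 5 of the list were lower and none was higher, and the list median was −0.14. PLSCR1, a phospholipid scramblase with antiviral activity, had the largest change, at −1.67, −1.89 and −1.74. Its arrays were close together in both dyes, with a mean of −1.74 ± 0.09, or 3.35-fold lower, and an adjusted p of 0.0194. WARS1, the tryptophanyl-tRNA synthetase, was at −0.88, −0.94 and −0.92, with a mean of −0.90 ± 0.08 and an adjusted p of 0.0247. Beside its induction by interferon it belongs to the aminoacyl-tRNA synthetases. TNFSF10, the death ligand TRAIL, was at −0.58 ± 0.08 with an adjusted p of 0.0440. Of the 3, 1 was still called when the Cy5 array of extraction 2 was left out, and 2 were with scaled arrays. The interferon-induced chemokines CXCL9, CXCL10 and CXCL11 were at 0.19, −0.04 and 0.08.

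Ligands, sensors and adaptors upstream of interferon gave no call among 9 measured genes, with a median of −0.03, and 1 lower and 1 higher at an unadjusted p under 0.05. TRAF3, an adaptor of the sensors, had the largest mean in size, at −1.05, but its arrays ran from −1.58 to −0.18 and the adjusted p was 0.111. The type II interferon gene IFNG was at 0.16 and the RNA sensor RIGI at 0.10.

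**Figure D4:**
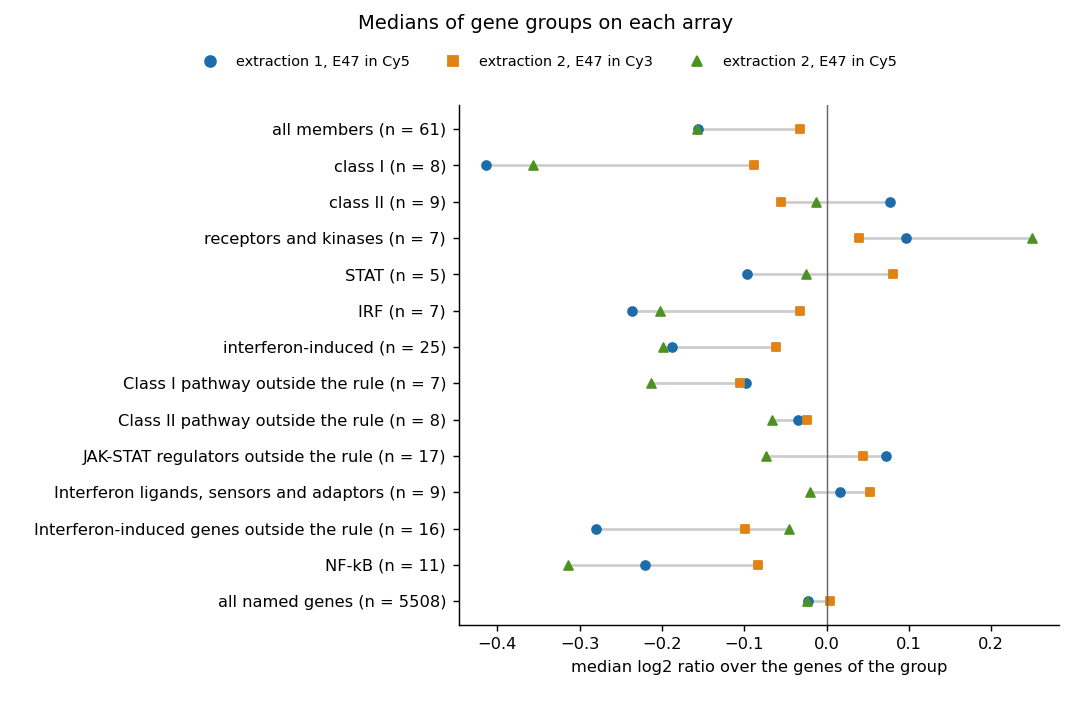
Median log2 ratio (x axis) over the genes of each group on each array, for all 61 genes, the 6 role groups, 6 further pathway lists and all 5508 named genes, with a line from the lowest to the highest array. The class I median is −0.41 for extraction 1 and −0.09 on the Cy3 array of extraction 2, while the median of all named genes is within 0.03 of 0 on each array.

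Markers of cell identity moved beside these genes. Of 8 measured epithelial markers, CDH1 among them, 8 were lower, with a median of −1.16, where 3.85% of all named genes were lower. The direction of the ratios was read partly from CDH1, so its sign is no separate result. With the opposite direction all 8 would be higher. When the Cy5 array of extraction 2 was left out, all 8 had means below 0, from −3.68 to −0.86, and 4 of them passed. Of 5 fibroblast and mesenchymal markers 3 were higher, where 5.34% of all named genes were, with SPARC at 2.85. PDGFRA and ACTA2, the other 2, did not pass. Their means were −0.21 and −0.11, and both were below 0 on every array. Of 12 leukocyte markers, whose cells carry most class II, 1 was higher, a share near the 5.34% of all named genes. None was lower, and the median was 0.01. The higher one was PTPRC, the CD45 phosphatase, at 1.03 ± 0.10 with an adjusted p of 0.0264. The 4 endothelial markers gave no call. The part of these changes in the lower HLA and CD74 values was not tested.

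**Figure D5:**
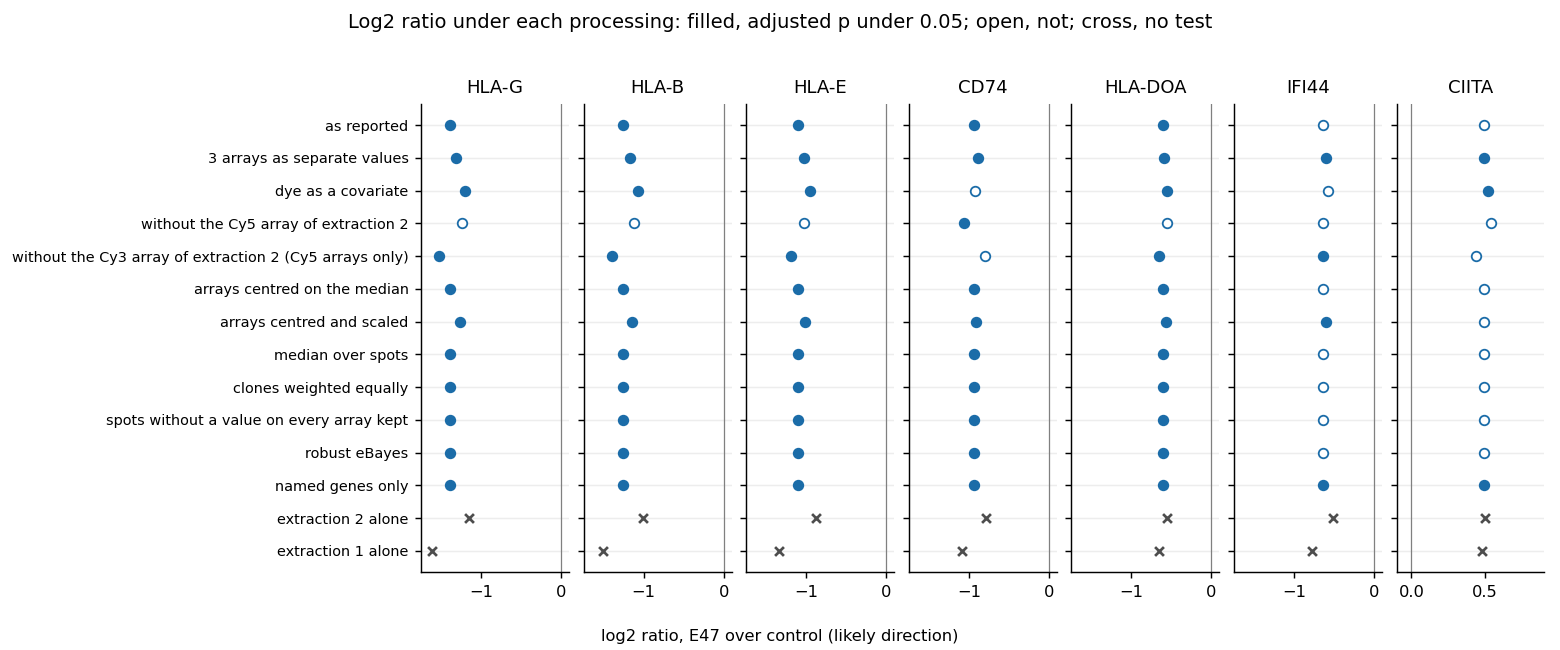
Log2 ratio of E47 over control (x axis, likely direction) of 7 genes under each processing (rows), with filled points where the adjusted p was under 0.05, open points where it was not and crosses where no test was possible. The direction is the same in every row, the 3 HLA class I genes and HLA-DOA are open without the Cy5 array of extraction 2, and CD74 is open without its Cy3 array and with dye as a covariate.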

How the data were processed

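The authors deposited log ratios, 1 column per array, with base, direction and normalization not given in the sources used here. As the largest value, 7.80, exceeds the log10 range of a scanner, the deposited values were read as log2 ratios. Column medians were −0.0051, 0.0027 and 7.67e-04, and the columns, dye swap included, correlated with r from 0.58 to 0.76 over spots. No sign was turned.

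Gene symbols came from the platform annotation. Of the members, 16 had no gene of the same symbol among the RefSeq genes of the dog. They were the 11 with HLA symbols and GBP2, IFI27, IFI27L1, IFIT1 and IFITM3. For HLA-DMA, HLA-DMB, HLA-DOA and HLA-DOB the dog has genes named alike but for the prefix, DLA-DMA, DLA-DMB, DLA-DOA and DLA-DOB. Of 27648 spots 17488 carry 1 symbol, 654 several and 9506 none. Only complete spots, with values from all 3 hybridisations, were used. They were averaged per gene, or kept as single features where no single gene was named, which gave 14008 features. The members rest on 178 spots, and 16 of them on several clones, of which 5 genes had clones of opposite sign. Both arrays of extraction 2 were averaged, and limma 3.58.1 (lmFit, eBayes; R 4.3.3) tested the mean of the 2 extractions against 0. The p-values were adjusted over all features by Benjamini and Hochberg. There is 1 residual degree of freedom, and the prior adds 2.71. Control RNA was treated as 1 common reference, which the labels do not settle. On that reading its own spread is left out. The code of the test was run on data simulated with independent errors from its own fitted prior. Such data cannot show effects of dye, of the shared control or of technical replicates. Figures were drawn with matplotlib 3.10.9.

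Named were all members that passed, in each role group without one the 2 largest, members with clones of opposite sign, and of further lists up to 4 that passed, or else the largest, with CDH1 and TCF3. Other genes are named after their values were seen. Members and lists were chosen with earlier results of these data known. A planned motif search in promoters was not run, as no promoter sequence was used here.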

Additional observations from a re-analysis of the deposited data

How the results depend on the processing

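Of 61 members, 5 passed as reported. The count was 10 with the 3 arrays as separate values, 1 without the Cy5 array of extraction 2, 9 with named genes only and 9 at an adjusted p under 0.10, and 5 or 6 under the other 8 tested alternatives. Over all named genes the count of 506 became 1008, 109, 1175 and 1244 under the same 4 settings, and 919 from the Cy5 arrays alone. The median of the members was −0.16 on the Cy5 arrays alone, −0.055 without the Cy5 array of extraction 2, and between −0.16 and −0.073 with either extraction left out. The 5 called genes kept their direction under all 14 alternatives. Genes with a mean near 0 changed sign, none of them with a call. With 3 separate arrays these were EIF2AK2 at 0.0027, HLA-DMA at 0.024, HLA-DOB at −0.010, IFI44L at −0.031, IFIT2 at −0.0065, JAK1 at 0.014 and TAP1 at −0.0012. With dye as a covariate they were EIF2AK2 at 0.010, HLA-DMA at 0.061, IFI44L at −0.078, IFIT2 at −0.022, JAK1 at 0.033, STAT4 at 0.023, STAT5B at 0.0099, TAP1 at −0.021 and TAP2 at 0.028. Without the Cy5 array of extraction 2 they were HLA-DMA at 0.019, IFIT1 at 0.0017, IRF9 at 0.0063, JAK1 at 0.024, STAT4 at 0.0072, TAP1 at −0.028 and TAP2 at 0.049. From the Cy5 arrays alone they were HLA-DOB at −0.031, IFI27 at −1.9e-04 and MX1 at −0.015. With scaled arrays they were HLA-DMA at 0.015, JAK1 at 0.014 and TAP1 at −0.0052, and with centred arrays JAK1 at 0.0013. Single clones differed in sign from the gene in EIF2AK2 at 0.10, HLA-F at 0.18, IFI27 at −0.16, JAK1 at 0.38 and STAT5B at 0.17. Of these genes HLA-F, with a mean of −0.42, was not near 0. With extraction 1 left out 12 members changed sign, to values between −0.19 and 0.10, and with extraction 2 left out 2 did, with no test in either case. The cause was not tested. No paired analysis was possible because the 3 arrays form 1 group. The number of arrays limits the precision, and signal over background is unknown.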

Other observations

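Spots that the averages left out gave further values. A second CD74 spot without a value on the Cy5 array of extraction 2 was at −1.14 for extraction 1 and −0.98 on the Cy3 array, close to the spot that was used. A second OASL clone without values on the Cy3 array had its 2 spots at −0.22 and −0.32 for extraction 1 and at −0.05 and 0.01 on the Cy5 array, where the clone that was used had means of 0.30 and 0.25. Clones annotated to several genes, with a symbol of the family among them, were 9 in number. None of their 15 spots with a value on all arrays passed. Some were annotated to IFITM10 and CTSD, the latter outside the family. Of these, 1 was at −0.58, −0.27 and −0.40, and the others had arrays on both sides of 0. The clone annotated to PYHIN1 and IFI16 was at 0.16, 0.39 and 0.10. The 4 clones of IFITM2 and IFITM1 were within 0.31 of 0 on the arrays of extraction 1 and of extraction 2 in Cy3, and 1 of them was at −0.91 on the Cy5 array.

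In the dog gene table, 20 measured named genes lie between the class I gene DLA88 and the class II gene DLA-DOA, a range chosen after the values were seen. Of these, 2 (10.0%) were lower and none was higher, where 3.85% and 5.34% of all named genes were so. The median was −0.08. The members TAP1 and TAP2 and the class I pathway gene PSMB8, all given above, are among the 20. The 2 lower genes were CSNK2B and DDAH2, with adjusted p-values of 0.0283 and 0.0444. CSNK2B, the regulatory subunit of casein kinase 2, was at −0.79, −0.69 and −0.89. DDAH2, an enzyme related to nitric oxide metabolism, was at −0.56, −0.62 and −0.60. TNF and LTB, cytokine genes of the same stretch, were at −0.22 and −0.07 and did not pass.

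NF-kappaB genes, which act beside IRF factors on many class I promoters, had a median of −0.21 over 11 measured genes. Of these, 10 had a mean below 0, as did 2888 of all 5508 named genes. BCL3, a nuclear member of the I-kappaB family, was lower, at −0.65 ± 0.08 (SE from limma, n = 2). Its adjusted p was 0.0367, and the other 10 did not pass, where 3.85% of all named genes were called lower. It lost its call with scaled arrays and without the Cy5 array of extraction 2. RELB was at −0.88, −0.08 and −0.56 and RELA at −0.66, −0.09 and −0.47, so both were near 0 on the Cy3 array. From the Cy5 arrays alone 4 of the 11 genes were called lower, where 8.55% of all named genes were.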
